A study of Homo sapiens with 8 samples.

Results

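Platelet-derived growth factors (PDGFs) and vascular endothelial growth factors (VEGFs) are secreted dimers of one structural family that signal through receptor tyrosine kinases. The PDGF receptors drive growth and migration of mesenchymal cells, including cells of the bone lineage, whereas the VEGF receptors are best known from blood and lymph vessels, which tumour cells reach by secreting the ligands. PDGF-C and PDGF-D, like VEGF-C, are made as latent or partly active proteins that proteases trim outside the cell.

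The genes described are 4 PDGF ligands (PDGFA, PDGFB, PDGFC, PDGFD), both PDGF receptors (PDGFRA, PDGFRB), 3 VEGF ligands (VEGFA, VEGFB, VEGFC) and the VEGF receptor FLT1, which make 10 of the 18417 genes measured. They were taken by symbol as a family around PDGFC, and PDGFC was chosen by its log2 difference between CDK9 siRNA and control siRNA in these same arrays. The differences of the 10 genes between the groups are therefore given gene by gene as a description, with errors and without p-values. How many had a limma adjusted p under 0.05 is given only as a count beside the share of all genes. Nothing is read from that count. Each gene had 1 probe set with a single annotated symbol.

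RNA came from U2OS, a human osteosarcoma cell line (spelled U20S in part of the labels), so all values describe a single established line. Of the 8 arrays, 4 held cells given siRNA against CDK9 and 4 held cells given a non-targeting siRNA (control siRNA). Both groups were transfected with the Hi-Perfect reagent at 10 nM siRNA and collected 72 h later, and no untransfected cells were measured. CDK9 is the catalytic subunit of P-TEFb, a kinase complex that lets RNA polymerase II leave its pause near the start of genes, and the comparison asks how transcript levels differ once it is silenced. The design text calls the 4 replicates of a group biological.

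Replicate 1 of both groups lay on a lower scale (array medians of 5.85 and 5.80 on the log2 scale) than replicates 2 to 4, whose medians ran from 6.99 to 7.04. Their description numbers also stand apart, so replicate 1 is called array set 1 (2 arrays) and replicates 2 to 4 array set 2 (6 arrays), and the set was a block in the fit. CDK9 itself had a log2 difference of -1.82 ± 0.05 (SE, n = 4 per group, limma adjusted p = 2.17e-07), which left 28.4% of the control signal. It was lower in all 4 same-numbered pairs. Of 8 bone and mesenchymal markers measured, 1 (ALPL) was among the dim genes, meaning the 30% with the lowest mean signal. All 8 endothelial markers were measured and 5 were dim. In extracts of whole cultures, fewer cells of a kind and less RNA per cell cannot be told apart.

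PDGFC was the gene of the family that was highest above control after CDK9 silencing. It encodes PDGF-C, whose chains carry a CUB domain that must be cleaved off before the growth factor domain can bind PDGF receptor alpha. Its log2 signal was 7.48, 9.16, 9.24 and 9.13 with CDK9 siRNA (replicates 1 to 4 in order), while control replicates 1 to 4 read 6.61, 8.04, 8.06 and 7.95. Within each array set every CDK9 siRNA array lay above every control array. PDGFC thus differed by 1.09 ± 0.07 log2 units (SE, n = 4 per group), or 2.12-fold, with a 95% confidence interval of 1.92-fold to 2.35-fold. The 4 same-numbered pairs gave 0.87, 1.13, 1.18 and 1.18, so the smallest was that of array set 1. Ranked by log2 difference, PDGFC stood at position 10 of the 18417 genes.

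The other PDGF ligands lay close to control. PDGFA, the chain of PDGF-AA, read 7.40, 8.33, 8.36 and 8.46 after CDK9 siRNA and 7.30, 8.66, 8.62 and 8.53 in the controls. Its log2 difference was -0.14 ± 0.07 (SE, n = 4 per group), split into 0.10 for array set 1 and -0.22 for array set 2, and its groups did not overlap in the latter. PDGFB, the chain of PDGF-BB and the ligand that engages both receptors, read 5.76, 6.61, 6.35 and 6.63 against 5.69, 6.61, 6.59 and 6.48. The groups overlapped, and the log2 difference was -0.0058 with a 95% confidence interval from -0.17 to 0.16. PDGFD, whose product has a CUB domain like PDGF-C and binds PDGF receptor beta, read 4.48, 6.07, 6.27 and 6.48 against 4.41, 6.33, 6.03 and 6.44. This dim gene had the widest spread of the 10, with an SD of 0.20 and 0.21 in the CDK9 siRNA and control arrays of array set 2 (n = 3 each). Its difference of 0.02 had an interval from -0.22 to 0.26.

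The 2 receptors of these ligands differed from control in opposite directions. PDGFRA, the receptor for PDGF-A, PDGF-B and PDGF-C chains, read 4.65, 6.38, 6.28 and 6.29 after CDK9 siRNA and 4.97, 6.68, 6.63 and 6.49 in the controls. It is a dim gene, yet each CDK9 siRNA array was below each control array of its set. PDGFRA differed by -0.29 ± 0.06 log2 units (SE, n = 4 per group), or 81.6% of control, with -0.31 for array set 1 and -0.29 for array set 2. PDGFRB, the receptor for PDGF-B and PDGF-D chains, read 7.05, 8.69, 8.84 and 8.71 against 7.05, 8.38, 8.27 and 8.34. Its difference was 0.31 ± 0.08 (SE, n = 4 per group), or 1.24-fold, and came from array set 2 (0.42), since the pair of array set 1 differed by only 0.0069. PDGFC, the ligand above control, is known to bind the product of PDGFRA, the receptor below control.

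**Figure D1:**
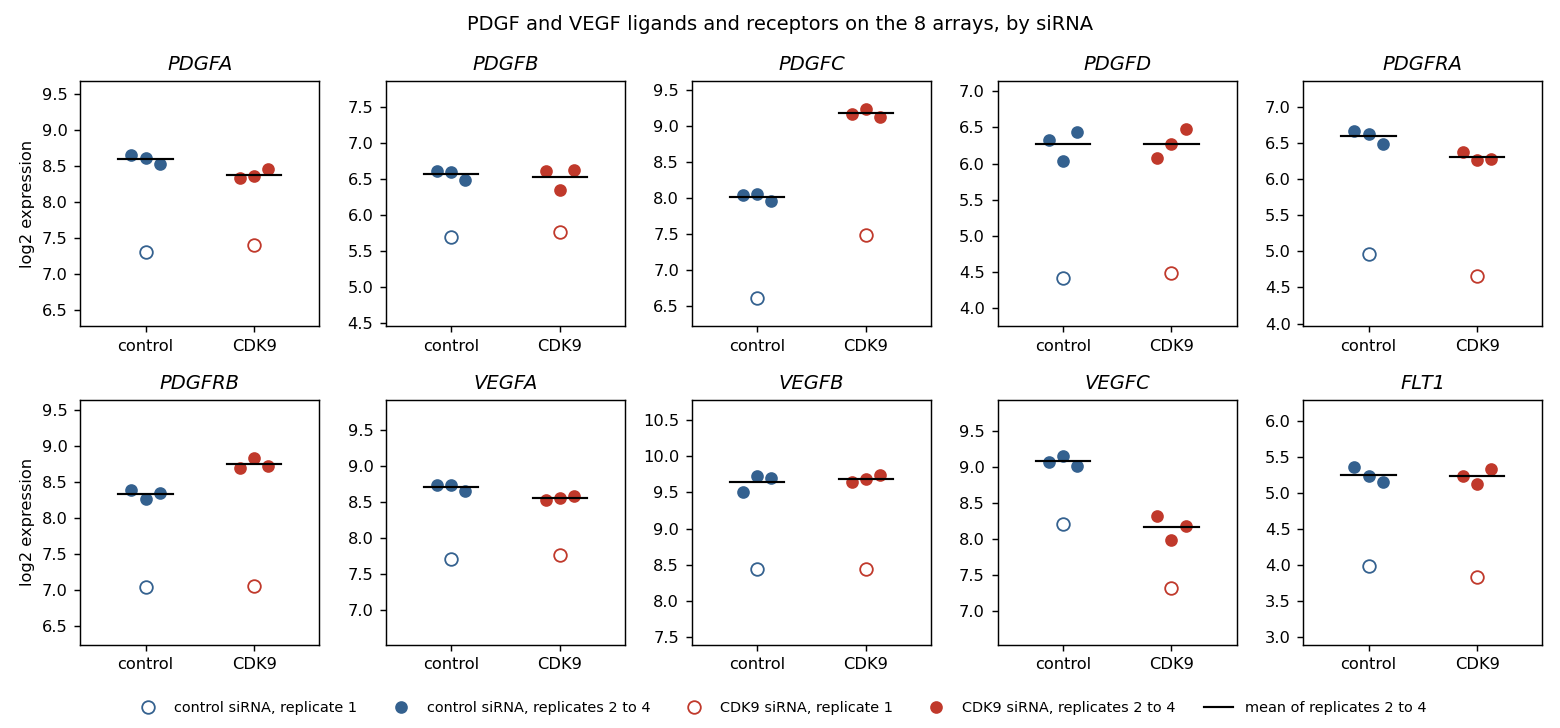
The log2 expression of the 10 genes (vertical axis, the same span in each panel) is plotted for control and CDK9 siRNA arrays. Open circles are replicate 1, filled circles replicates 2 to 4, and bars the mean of replicates 2 to 4. In replicates 2 to 4 the PDGFC mean is 8.02 in controls and 9.18 after CDK9 siRNA, and that of VEGFC is 9.08 and 8.17, with no overlap in either gene.

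VEGFC showed the opposite of PDGFC. It encodes VEGF-C, the main growth factor of lymphatic endothelium, which signals through FLT4 and, once fully cleaved, also through KDR. Its log2 signal was 7.32, 8.32, 7.996 and 8.18 after CDK9 siRNA and 8.22, 9.08, 9.16 and 9.01 in the controls. All CDK9 siRNA arrays of a set were below its control arrays. VEGFC differed by -0.91 ± 0.07 log2 units (SE, n = 4 per group), leaving 53.2% of the control signal (95% confidence interval 47.4 to 59.7%). It was nearly the same in array set 1 (-0.90) and array set 2 (-0.91). Ranked from the largest fall, VEGFC stood at position 35 of all genes.

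VEGFA and VEGFB differed little. VEGFA, the chief angiogenic ligand and a target of hypoxia signalling, read 7.76, 8.53, 8.55 and 8.58 after CDK9 siRNA against 7.71, 8.73, 8.73 and 8.65. VEGFA differed by -0.10 ± 0.06 log2 units (SE, n = 4 per group), with 0.06 for array set 1 and -0.15 for array set 2, whose CDK9 siRNA arrays all lay below the controls. VEGFB, a ligand of FLT1 linked to fatty acid handling, read 8.44, 9.64, 9.69 and 9.74 against 8.44, 9.51, 9.73 and 9.70. Its groups overlapped and its difference was 0.04, with an interval from -0.10 to 0.18. FLT1, the receptor that binds VEGF-A, VEGF-B and placental growth factor, read 3.83, 5.24, 5.12 and 5.34 against 3.99, 5.36, 5.24 and 5.15. It is a dim gene, its groups overlapped, and its difference was -0.05 with an interval from -0.21 to 0.10.

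**Figure D2:**
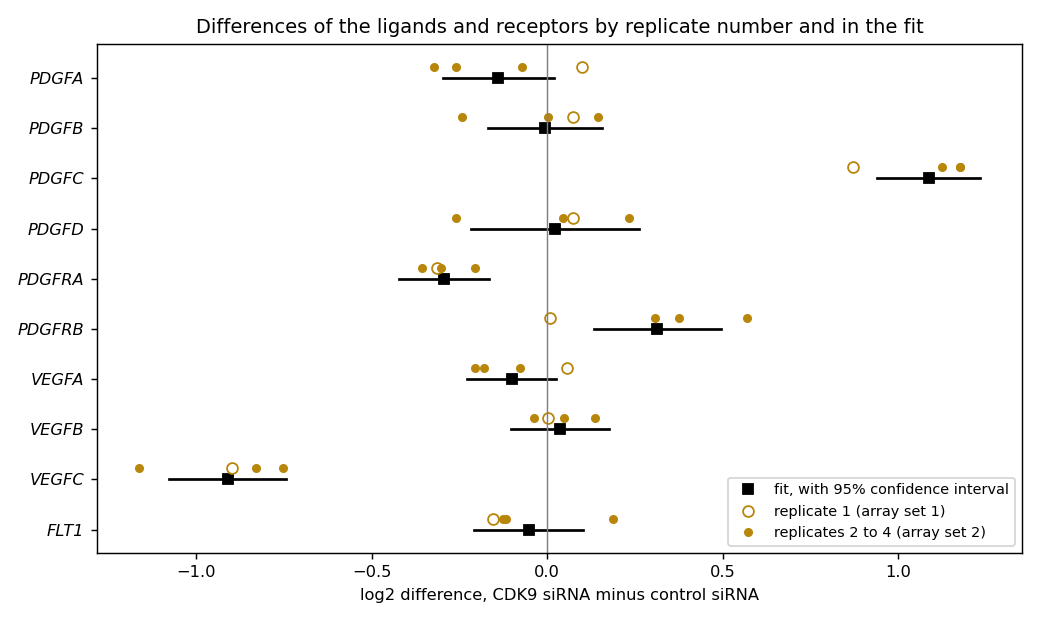
The log2 difference of CDK9 siRNA minus control siRNA (horizontal axis) is shown for each of the 10 genes. Black squares with bars are the fit with its 95% confidence interval, the open circle is replicate 1 and the filled circles are replicates 2 to 4. PDGFC lies near 1.09 and VEGFC near -0.91, while PDGFRB has its replicate 1 pair at 0.0069.

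Counted over the family, 4 of the 10 genes (PDGFC and PDGFRB higher, PDGFRA and VEGFC lower) had a limma adjusted p under 0.05, beside a background of 14.2% of all genes, 6.73% higher and 7.47% lower. Nothing is read from this count, since the contrast was used to choose PDGFC. With same-numbered pairs as the block it was 3 of 10 against a background of 9.17% (4.41% higher, 4.75% lower), PDGFRB no longer being among them. Leaving out any 1 array of array set 2 also gave 3, and array set 2 alone gave 5, with PDGFA lower as the addition. Over array set 2 the groups did not overlap in 6 of the 10 genes, with 2 higher and 4 lower, against 38.1% of all genes (18.7% higher, 19.5% lower). The family's median difference was -0.03, and that of all genes -0.0016.

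Whether a difference was unequal between the array sets was tested with the interaction of group and set, which the choice of the genes did not use. None of the 10 passed it in limma (adjusted p from 0.114 for PDGFRB to 0.969 for VEGFC), beside 2.14% of all genes. At an unadjusted p under 0.05 there were 3 of the 10, beside 21.5% of all genes. Array set 1 holds 1 array of each group, so the spread in this test comes from array set 2.

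**Figure D3:**
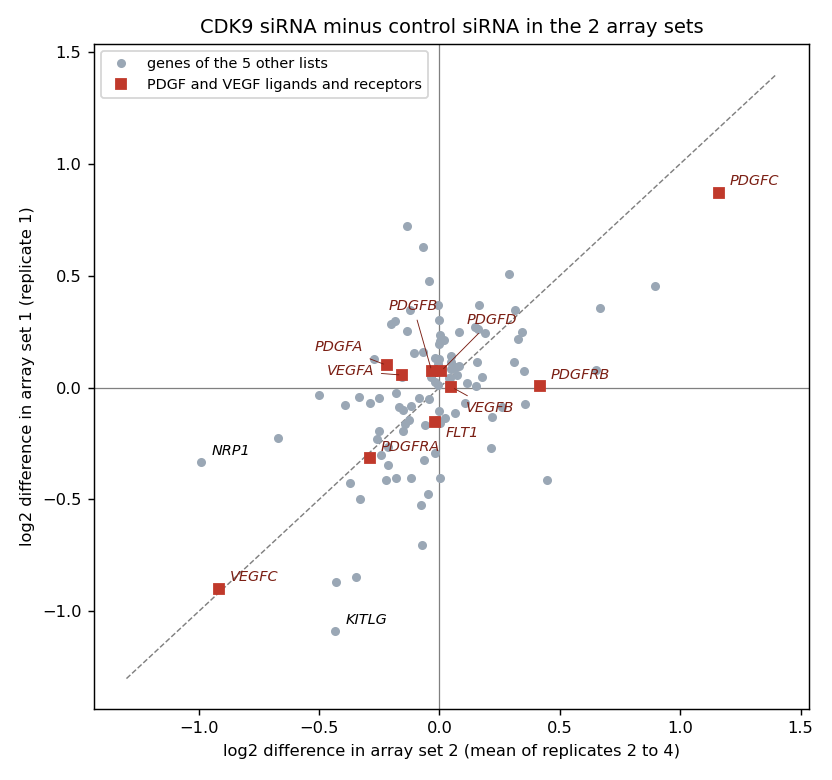
Each point is a gene, with its log2 difference of CDK9 siRNA minus control siRNA in array set 2 (horizontal axis) and in array set 1 (vertical axis), and the dashed line marks equal values. Red squares are the 10 PDGF and VEGF genes and grey circles the genes of 5 other lists. VEGFC (-0.91 and -0.90) lies on the line, and PDGFRB (0.42 and 0.0069) and NRP1 (-0.99 and -0.33) lie off it.

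After the mean of each array set was taken off, VEGFC followed the inverse of PDGFC over the 8 arrays (Pearson's r = -0.98). This is a description, since what is left is largely the group difference by which PDGFC was chosen. Other members that differed between the groups also had r far from 0 with PDGFC (PDGFRA -0.91, PDGFRB 0.89). The 5 genes whose profile was most like that of PDGFC were COQ6, FBXL12, LCP1, LAMB3 and PTGR3, with r from 0.996 to 1.0 over 8 arrays. COQ6 encodes an enzyme of coenzyme Q synthesis, FBXL12 an F-box protein of ubiquitin ligases, LCP1 the actin-bundling L-plastin and LAMB3 a laminin chain. Their log2 differences spanned 0.29 for FBXL12, 0.30 for COQ6, 0.41 for PTGR3, 0.83 for LAMB3 and 2.14 for LCP1. Of 12891 genes ranked, 29 (0.225%) had r above 0.99. That share is for positive r and gives no background for the negative r of VEGFC.

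Promoter sequences are shown for VEGFC, PDGFRB and PDGFRA, because these differed most from control among the 7 members that RefSeq's promoter table (GRCh38.p14) holds. PDGFB, PDGFC and VEGFA were not matched. The stretches are the 250 bases before the annotated start, on the gene's strand, and PDGFRA has 2 annotated starts. They lie at chr4:176792923-176793172 (VEGFC, minus strand), chr5:150155846-150156095 (PDGFRB, minus strand), chr4:54229043-54229292 (PDGFRA, plus strand, upstream start) and chr4:54233710-54233959 (PDGFRA, plus strand, downstream start). Capitals mark the GC box GGGCGG, the CCAAT box CCAAT and the TATA box TATAAA, searched on both strands, and no matches overlapped in these 4 stretches.
VEGFC: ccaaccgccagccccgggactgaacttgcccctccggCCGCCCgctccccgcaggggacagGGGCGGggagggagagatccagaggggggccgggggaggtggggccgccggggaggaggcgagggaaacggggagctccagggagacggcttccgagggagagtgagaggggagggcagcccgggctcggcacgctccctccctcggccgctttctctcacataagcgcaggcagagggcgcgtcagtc
PDGFRB: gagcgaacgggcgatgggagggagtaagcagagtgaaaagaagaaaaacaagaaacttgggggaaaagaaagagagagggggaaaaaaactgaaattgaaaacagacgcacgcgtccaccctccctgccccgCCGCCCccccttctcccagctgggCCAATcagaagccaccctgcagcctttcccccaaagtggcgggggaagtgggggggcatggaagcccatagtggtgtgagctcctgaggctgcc
PDGFRA upstream start: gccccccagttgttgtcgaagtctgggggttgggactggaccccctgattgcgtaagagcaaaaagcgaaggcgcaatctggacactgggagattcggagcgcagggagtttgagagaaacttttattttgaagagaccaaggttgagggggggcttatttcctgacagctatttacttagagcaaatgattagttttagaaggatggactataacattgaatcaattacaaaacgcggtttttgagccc
PDGFRA downstream start: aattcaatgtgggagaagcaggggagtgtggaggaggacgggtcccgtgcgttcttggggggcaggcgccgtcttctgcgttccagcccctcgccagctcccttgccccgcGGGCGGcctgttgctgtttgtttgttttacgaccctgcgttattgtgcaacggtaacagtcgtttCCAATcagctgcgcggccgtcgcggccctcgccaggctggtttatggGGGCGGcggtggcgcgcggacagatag
VEGFC held 2 GC boxes and no CCAAT or TATA match. Of its bases 74.0% were G or C, beside a median of 58.0% over all promoters. That share was 58.4% for PDGFRB, 46.8% for the upstream PDGFRA stretch and 64% for the downstream one. PDGFRB held 1 GC box and 1 CCAAT box, the latter starting 94 bases before the start. The upstream PDGFRA stretch held none of the 3 motifs, and the downstream one held 2 GC boxes and 1 CCAAT box, at 74 bases before the start. Of 35116 promoters in the table, 42.6% held a GC box, 32.0% a CCAAT box and 10.7% a TATA box in the same window. A match of letters is a description and shows no binding.

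Genes around the family were taken from 5 lists with 96 measured genes, of which 11 rose and 17 fell in limma with array set as block, beside 6.73% and 7.47% of all genes. The count was 19 of 96 with same-numbered pairs as the block, beside 9.17% of all genes, and 17, 16 and 15 without CDK9 siRNA replicate 3, control replicate 2 and control replicate 3. Adjusted p-values below are from limma over all genes. The lists were chosen with earlier results of these data known. Their counts are therefore no independent test of a list, and nothing is read from them beside the shares of all genes.

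Among other family members and coreceptors, 3 of 12 fell and 0 rose (0 also at an unadjusted p under 0.05). Over all genes 7.47% fell and 6.73% rose, and the list median was -0.02. The largest fall in the list was that of NRP1, neuropilin-1, a coreceptor that binds VEGF-A and other ligands. Its log2 signal was 5.998, 7.86, 7.57 and 7.86 after CDK9 siRNA and 6.33, 8.96, 8.75 and 8.55 in the controls, with no overlap within either set. NRP1 fell by 0.83 ± 0.14 log2 units (SE, n = 4 per group, adjusted p = 0.00453), leaving 56.4% of the control signal. Array set 1 gave -0.33 and array set 2 gave -0.99.

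KITLG, the ligand of the related receptor KIT, fell by 0.60 (adjusted p = 0.00689), with differences of -1.09 in array set 1 and -0.44 in array set 2. CSF1, the ligand of the related receptor CSF1R, fell by 0.23 (adjusted p = 0.0153), and lost its call without control replicate 3 (adjusted p = 0.0637). The remaining VEGF receptors did not pass: KDR, the main signalling receptor of VEGF-A (0.07, interval -0.11 to 0.24, dim), and FLT4, the receptor of VEGF-C (0.02, interval -0.09 to 0.14). PGF, placental growth factor, differed by -0.0015 (interval -0.13 to 0.13). NRP2, the neuropilin that binds VEGF-C, differed by 0.02 at its kept probe set (dim) and by -0.30 at its other one.

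Of 14 genes that cleave, release or bind the ligands, 3 rose and 2 fell, beside 6.73% and 7.47% of all genes (list median 0.04). ADAMTS3, a protease that cleaves VEGF-C, rose by 0.51 ± 0.11 (SE, n = 4 per group, adjusted p = 0.0130) and its cofactor CCBE1 by 0.32 ± 0.07 (adjusted p = 0.0130). ADAMTS3 read 8.03, 9.02, 9.23 and 9.13 after CDK9 siRNA and 7.95, 8.39, 8.60 and 8.44 in the controls, so array set 1 contributed 0.08 and array set 2 0.65. CCBE1 differed by 0.25 and 0.34 in the 2 sets.

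PLAU, the urokinase plasminogen activator, rose 1.504-fold, reading 7.52, 9.32, 9.27 and 9.23 against 7.16, 8.54, 8.68 and 8.59 (adjusted p = 0.000846). PLAT, the tissue plasminogen activator known to activate PDGF-C, did not pass the test at a difference of 0.12 (adjusted p = 0.149, interval 0.0085 to 0.24). FURIN, a proprotein convertase that cleaves PDGF and VEGF-C precursors, fell by 0.24 (adjusted p = 0.0173). THBS1, thrombospondin-1, an inhibitor of angiogenesis, fell by 0.31 (adjusted p = 0.0185). FURIN lost its call without control replicate 2 or 3 (adjusted p = 0.0513 and 0.0673), and THBS1 without CDK9 siRNA replicate 3, control replicate 3 or control replicate 4 (0.0517, 0.0615 and 0.0617). Without control replicate 3 the list had 3 calls.

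Of 23 genes acting at the activated receptors, 7 fell and 1 rose, beside 7.47% and 6.73% of all genes, and a list median of -0.14. The falls took in CBLB, a ubiquitin ligase that removes active receptors (-0.54, adjusted p = 0.00307), the docking protein GAB1 (-0.47, adjusted p = 0.0109), the Src family kinase FYN (-0.37, adjusted p = 0.00453) and the adaptor NCK2 (-0.25, adjusted p = 0.0199). The phosphatases PTPN2 (-0.39, adjusted p = 0.00158) and PTPN1 (-0.25, adjusted p = 0.00669), which dephosphorylate receptor tyrosine kinases, fell too, as did STAT5B (-0.23, adjusted p = 0.0322). The adaptor CRKL rose by 0.21 (adjusted p = 0.0441). The genes that fell thus include known inhibitors of receptor signalling (CBLB, PTPN1, PTPN2) and known carriers of it (GAB1, FYN, NCK2, STAT5B).

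Calls of this list were not equally firm. With same-numbered pairs as the block 5 of 23 passed, and NCK2, CRKL and STAT5B had adjusted p = 0.0593, 0.106 and 0.0647. CRKL lost its call without any 1 of the 8 arrays (adjusted p = 0.0535 to 0.130) and STAT5B without any 1 array of array set 2 (0.0528 to 0.102). NCK2 lost it without CDK9 siRNA replicate 2, control replicate 2 or control replicate 3 (0.0558, 0.0568 and 0.0655). Without control replicate 2 or 3 the list had 5 calls.

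The hypoxia list holds regulators and targets of the factors that control VEGFA. Of its 19 genes 4 rose and 1 fell, beside 6.73% and 7.47% of all genes (list median -0.02). The glucose transporter SLC2A1 rose by 0.34 (adjusted p = 0.00434) and HIF1AN, an oxygen-dependent inhibitor of HIF, by 0.32 (adjusted p = 0.00553). The mitophagy receptor BNIP3 rose by 0.26 (adjusted p = 0.0306) and HIF1A, the oxygen-regulated subunit itself, by 0.18 (adjusted p = 0.0445). PFKFB3, a glycolytic regulator, fell by 0.26 (adjusted p = 0.0317). It gave -0.04 in array set 1 and -0.33 in array set 2, and SLC2A1 gave 0.51 and 0.29. With same-numbered pairs as the block, 2 genes of the list passed, SLC2A1 and HIF1AN, and the adjusted p values of HIF1A, BNIP3 and PFKFB3 were 0.0969, 0.0565 and 0.0720. HIF1A also lost its call without any 1 of the 8 arrays (0.0580 to 0.119) and with arrays centred on their medians (0.0510). PFKFB3 lost its call without any 1 array of array set 2 (0.0627 to 0.0995) and with a further quantile normalization (0.0545). The same held for BNIP3 without any control of array set 2, or without replicate 3 or 4 of CDK9 siRNA (0.0721 to 0.0917). Leaving out any 1 array of array set 2 gave 2 or 3 calls in the list.

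Of 28 genes of other growth factor systems, 3 rose, 4 fell and 21 did not pass (list median 0.06), beside 6.73% and 7.47% of all genes that rose and fell. EGF, the epidermal growth factor gene, rose most, by 0.78 ± 0.11 (SE, n = 4 per group, adjusted p = 0.00181), from 5.70, 6.01, 5.83 and 6.09 in the controls to 6.16, 6.76, 7.08 and 6.77. By its mean over both groups EGF was not a dim gene, but its control mean of 5.91 lay below the dim limit of 6.14. Its receptor EGFR fell by 0.56 ± 0.10 (SE, n = 4 per group, adjusted p = 0.00578). MET, the receptor of hepatocyte growth factor, rose by 0.28 (adjusted p = 0.0174), and TEK, the angiopoietin receptor (dim), by 0.30 (adjusted p = 0.0247). The angiopoietin gene ANGPT1 (dim) fell by 0.38 (adjusted p = 0.0319), HBEGF, another ligand of EGFR, by 0.24 (adjusted p = 0.0336) and FGFR1 by 0.20 (adjusted p = 0.0360). In array set 1 and array set 2, ANGPT1 gave -0.03 and -0.50, FGFR1 -0.05 and -0.25, and MET 0.07 and 0.35. TEK gave 0.22 and 0.33, and HBEGF -0.40 and -0.18.

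With same-numbered pairs as the block 4 of the 28 genes passed, beside 9.17% of all genes, and HBEGF, FGFR1 and MET had adjusted p = 0.0817, 0.0940 and 0.0503. ANGPT1 and FGFR1 lost theirs without any 1 array of array set 2 (0.0515 to 0.0945 and 0.0805 to 0.117). HBEGF lost its call without any 1 array other than control replicate 3 (0.0540 to 0.0973) and with median centring (0.0629), and FGFR1 also with a further quantile normalization (0.0594). MET lost it without CDK9 siRNA replicate 3, control replicate 2 or control replicate 3 (0.0555, 0.0513 and 0.0606). The TEK call was lost without any one of 4 arrays, namely replicates 3 and 4 of CDK9 siRNA (0.0594 and 0.0516) and replicates 2 and 3 of control (0.0718 and 0.0816). Leaving out any 1 array of array set 2 gave 2 to 5 calls in the list.

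**Figure D4:**
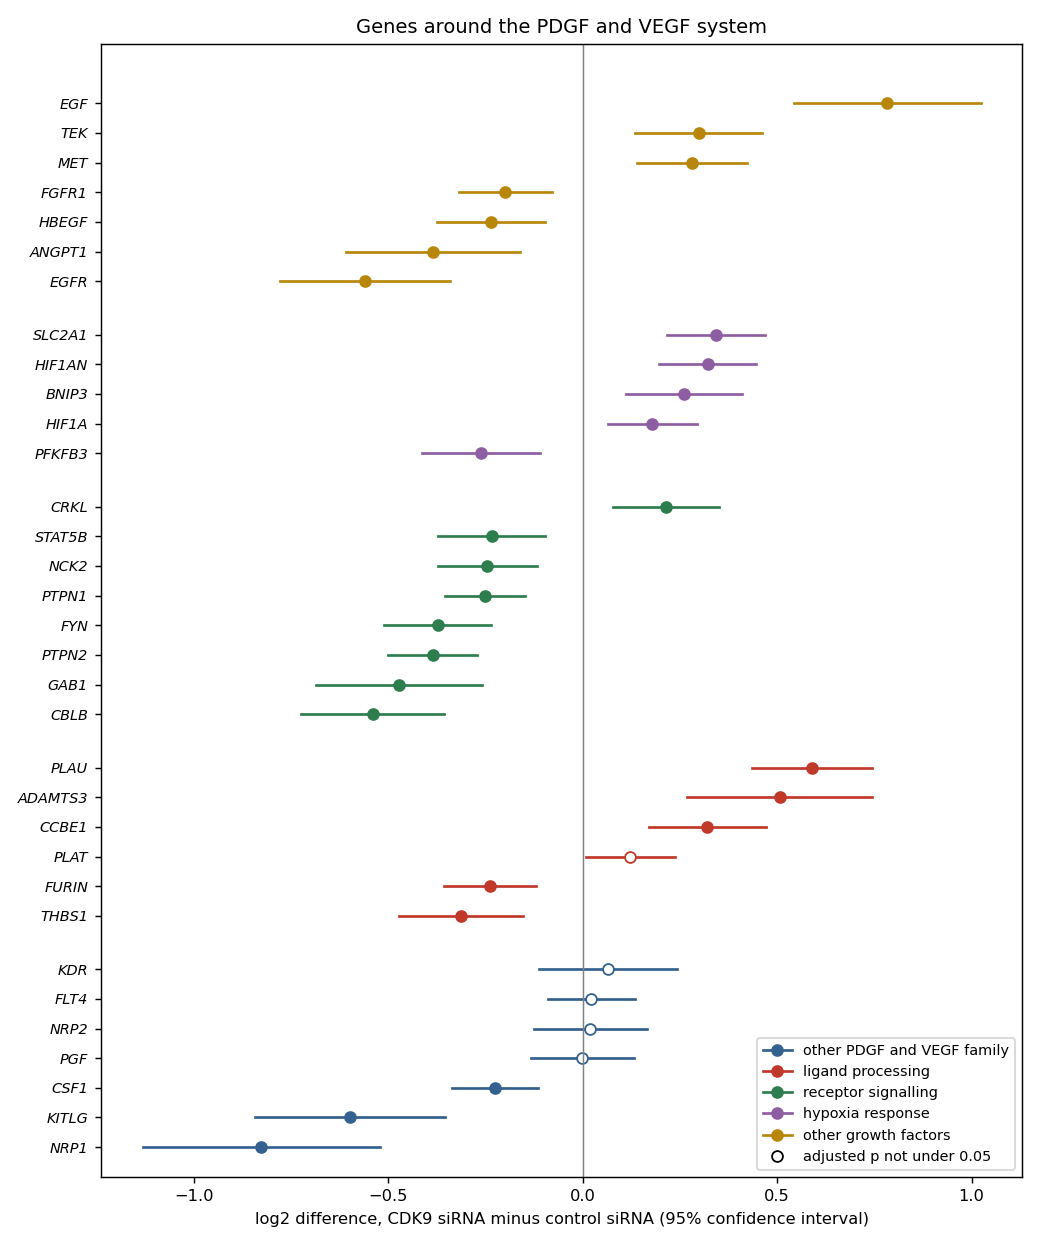
The log2 difference of CDK9 siRNA minus control siRNA (horizontal axis) with its 95% confidence interval is drawn for the named genes of 5 lists, coloured by list. Filled circles had a limma adjusted p under 0.05 and open circles did not. NRP1 at -0.83 and EGF at 0.78 lie farthest from 0.

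Marker lists of vessel cells gave values beside which the family can be set. Of 8 endothelial markers 0 passed in limma (0 higher and 1 lower, ERG at -0.25, at an unadjusted p under 0.05). The log2 of their summed unlogged signal was 9.27 to 9.28 after CDK9 siRNA and 9.29 to 9.35 in the controls of array set 2. In array set 1 the order was reversed, with 8.14 after CDK9 siRNA and 8.02 in the control. CLDN5 was the brightest of these markers. Among 8 mural cell markers, which PDGFRB-positive pericytes share, 2 rose and 0 fell (0 fell at an unadjusted p under 0.05). Over all genes 6.73% rose and 7.47% fell. RGS5 rose by 0.25 (adjusted p = 0.0294, and 0.0741 under the pairing) and MCAM by 0.43 (adjusted p = 0.00482). The other 6 did not pass: ACTA2 (0.13), ABCC9 (0.03), DES (-0.0081), CSPG4 (-0.01), NOTCH3 (-0.07) and KCNJ8 (-0.10). The list median was 0.01. The log2 of the summed signal of all 8 was 10.8 in all 3 CDK9 siRNA arrays of array set 2 and 10.6 to 10.7 in the controls. In array set 1 it was 9.78 and 9.73. MCAM was the brightest of the 8, with array set 2 means of 9.10 after CDK9 siRNA and 8.58 in the controls. The part of the mural markers in the PDGFRB difference was not tested.

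Of 8 bone and mesenchymal markers, 4 fell, 0 rose (0 at an unadjusted p under 0.05) and 4 did not pass, beside 7.47% and 6.73% of all genes that fell and rose. Those that did not pass were COL1A2 (-0.23), SP7 (0.13), ALPL (0.07) and THY1 (0.05). CDH11, the osteoblast cadherin, fell by 0.75 (adjusted p = 0.000417), the transcription factor RUNX2 by 0.60, COL1A1 by 0.51 and vimentin VIM by 0.19 (adjusted p = 0.0323, and 0.0808 under the pairing). The log2 of the summed signal of all 8 in array set 2 was 12.9 to 12.95 after CDK9 siRNA and 13.1 in the controls. In array set 1 it was 11.7 and 11.9. VIM was the brightest of the 8. Of 7 leukocyte and epithelial markers, 5 of them dim, 1 rose (EPCAM, 0.32, dim, adjusted p = 0.0366, and 0.0841 under the pairing) and 0 fell (0 at an unadjusted p under 0.05). The log2 of their summed signal was 12.7 to 12.8 in both groups of array set 2, and 11.8 and 11.9 in array set 1. This signal came mostly from the keratin gene KRT18. The part of any of these lists in the differences of the family was not tested.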

How the data were processed

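The deposited table holds log2 expression values per probe set, made by the authors. The submitters' processing notes name RMA, limma, the build hg19 and Affymetrix Expression Console 1.1, without roles or order. The sources used here do not give the arrays that shared a normalization, and replicate 1 of both groups lies on a lower scale. The number of arrays limits the precision.

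Of 33297 probe sets, 19460 had 1 gene symbol, 1754 several and 12083 none in the platform annotation. Single-symbol probe sets were used, with the highest mean per gene kept, which left 18417 genes. Entrez identifiers of 19429 matched RefSeq (GRCh38.p14) and changed 0 symbols.

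The test was limma 3.58.1 under R 4.3.3 (lmFit, eBayes, two-sided, Benjamini-Hochberg over all genes, threshold 0.05), with array set as block. It was also run on simulated data with independent normal noise around the same array set model. That run could not test pairing or unequal spread between the sets. Standard errors are limma's moderated ones. Plots used matplotlib 3.10.9, and tables numpy 2.4.6 and pandas 2.3.3 under Python 3.11.15. The members and lists were chosen with earlier results of these data known. Named genes were the members, CDK9, list genes past the threshold (at most 4 per direction where over 8 passed), PGF, KDR, FLT4, NRP1, NRP2, PLAT and HIF1A, and the 5 genes most like PDGFC among those not dim. VEGFD, also in that rule, had no single-symbol probe set and was not analysed here. Marker genes are named where they passed, and some where they did not.

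Replicate numbers recur in both groups. Deviations from group means correlated within same-numbered pairs at 0.822, 0.537, 0.494 and 0.607, above the limit of 0.1 for treating numbers as pairs, so values with the replicate number as a block are given where calls changed. The pooled deviations include the scale difference between the sets, so passing the limit does not show pairing within a set. Within array set 2 alone the same-numbered pairs correlated at 0.108, -0.011 and 0.170. Arrays of different numbers there correlated at -0.175 to 0.076. Alternatives were no block, the replicate block, array set 2 alone, median centring, quantile normalization, leaving out dim genes, averaging probe sets and leaving out each array.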

Additional observations from a re-analysis of the deposited data

Results flagged for a closer look

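Levels of the 10 genes, CDK9 and NRP1, with each array's median taken off, were screened for an array far from the others. The screen covered 24 groups of 4 arrays, and chance alone flags about 1 in 20 groups of like arrays. Each group here mixed array set 1 with array set 2, so that rate need not hold. In 2 of the 24 groups CDK9 siRNA replicate 1 stood apart, with a gap to the nearest array of 0.874 of the range for PDGFRA and 0.833 for VEGFA. PDGFRA stood at -1.19 there and at -0.72 to -0.65 on the other 3 arrays. VEGFA stood at 1.92 there and at 1.499 to 1.57 on the others. Control replicate 1, the other array of array set 1, was not flagged. It was likewise the lowest control for PDGFRA and the highest for VEGFA after the same step. Array set 1 differs in scale, and the part of that scale was not tested.

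KITLG differed between the array sets by 0.65 (set 2 minus set 1, limma interaction, adjusted p = 0.0463). Its difference was below 0 in both, at -1.09 in array set 1 and -0.44 in array set 2. Among the 96 pathway genes, 4 more passed this test, none of which passed the comparison of the groups. DDIT4 differed between the sets by -0.70 (adjusted p = 0.0223), FGF5 by -0.86 (adjusted p = 0.0259), PIK3CB by 0.86 (adjusted p = 0.0274) and SPARC by 0.63 (adjusted p = 0.0304), all by limma. DDIT4, FGF5 and PIK3CB had opposite signs in the 2 sets (0.63 and -0.07, 0.72 and -0.13, and -0.41 and 0.45 for set 1 and set 2), and SPARC was below 0 in both (-0.70 and -0.07). Over all genes 2.14% passed.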

How the results depend on the processing

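Without a block, limma called 0 genes higher and 0 lower (28 and 23 at an unadjusted p under 0.05), 0 of the 10 PDGF and VEGF genes (1 higher and 1 lower unadjusted) and 0 of the 96 pathway genes (1 higher unadjusted), and CDK9 lost its call at -1.82. The sets hold equal numbers of both groups, so the differences themselves did not change. The replicate block gave 813 genes higher and 875 lower, against 1239 and 1376, and 19 pathway calls against 28. Receptor signalling had 5 calls against 8, hypoxia 2 against 5 and other growth factors 4 against 7. It changed no call of a named gene beyond those given with the results. Leaving out dim genes gave 8 hypoxia calls. The PDGFC difference was 1.16 in array set 2 alone.

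Leaving out each array in turn gave 1.05 to 1.16 for PDGFC, -1.83 to -1.81 for CDK9, -0.071 to 0.0042 for the family's median, 3 to 5 members passing, 15 to 31 pathway calls, and 714 to 1753 genes higher and 806 to 1578 lower. Genes higher numbered 771, 796, 714 and 814 without CDK9 siRNA replicate 3 and control replicates 2, 3 and 4, and genes lower 883, 806 and 871 without CDK9 siRNA replicate 3 and control replicates 3 and 4. Some uncalled differences changed sign: PGF was 0.0047 with median centring, 0.036 without CDK9 siRNA replicate 3 and 0.028 without control replicate 2. FLT4 was -0.0058 in array set 2 alone and without either replicate 1. NRP2 was -0.017 in those 3 settings, -0.14 as the mean of its probe sets and -0.011 without CDK9 siRNA replicate 4. With 1 array left out PGF ran from -0.030 to 0.036, FLT4 from -0.0058 to 0.041 and NRP2 from -0.017 to 0.069. The cause was not tested.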
